A study of Mus musculus with 6 samples.

Results

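A set of 6 interferon-inducible genes, Ifi203, Ifi204, Ifi205 and Ifi211 of the IFI200 family together with Isg15 and Rtp4, were followed in natural killer (NK) cells exposed to oleic acid. They were chosen by gene symbol and make up 6 of the 559 genes that the deposited table lists. All 6 were lower in the oleic acid libraries, to between 0.606 of the control level for Ifi205 and 0.807 for Ifi203, and for each of them every oleic acid library lay below every control library. In limma, with Benjamini-Hochberg adjustment over all listed genes and a threshold of 0.05, 5 of the 6 fell and Ifi211 did not pass (adjusted p = 0.0507). Of all 559 listed genes, 40.1% fell by the same test. The groups did not overlap for most listed genes, with 48.5% lower and 45.1% higher in this way.

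The cells were NK cells purified from the spleens of C57BL/6 mice, and RNA was sequenced in 3 libraries of each group. The control group was kept without oleic acid, and the other group was exposed for 36 h to oleic acid (OA) at 0.2 mM, a fatty acid with a single double bond. The question was which transcripts differ in NK cells after OA. The labels state that the treatment was carried out only once, and do not say whether the 3 libraries of a group came from separate mice or cultures, so p-values measure only the spread between these libraries, which may be technical. The age and sex of the mice, the vehicle and the purity of the cells are not given in the sources used here. Levels are in TPM, a share of all transcripts in a library corrected for transcript length, so that levels can be compared between genes. Every listed gene has an authors' Q value under 0.05 on these same libraries. Being listed and being different are therefore the same selection, and unlisted genes were not analysed here. The adjustment of p-values was made over genes selected in this way, so an adjusted p here does not control the share of false discoveries.

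Interferons are cytokines that bind receptors on the cell surface and act through JAK kinases and STAT transcription factors. Type I interferons activate a complex that binds the interferon-stimulated response element (ISRE), and interferon gamma, the type that NK cells secrete, acts mainly at GAS elements and by inducing Irf1. IFI200 proteins carry a HIN domain that binds DNA, in most members together with a pyrin domain, and have been linked to sensing of foreign DNA, growth control and differentiation. ISG15 is a small ubiquitin-like protein that is attached to other proteins after interferon exposure, and RTP4 is a chaperone of G protein-coupled receptors that is itself induced by interferon. Ifi204, Ifi205 and Ifi211 are also expressed in macrophages.

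The 4 IFI200 genes lie together on chromosome 1 (RefSeq on GRCm38): Ifi204 at chr1:173747293-173767069, Ifi211 at chr1:173896339-173913087, Ifi203 at chr1:173920400-173942866 and Ifi205 at chr1:174011998-174031755, all on the minus strand. From the start of Ifi204 to the end of Ifi205, the GENCODE annotation spans 284.5 kb and holds 6 genes of the family, of which Mndal and Ifi202b were not listed. GENCODE annotates Mndal on the same strand across Ifi211 and most of Ifi203. Isg15 lies at chr4:156199424-156200818 on the minus strand, and Rtp4 at chr16:23520219-23614222 on the plus strand.

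Promoter windows, running from 250 bases before to 50 bases after the transcription start, were found for 4 of the 6 genes in the RefSeq table for GRCm38.p6. The windows below are shown because these genes were lower together and each window holds a match to an ISRE-like motif, searched on both strands: the half-site GAAA, a spacer of 2 bases of any kind, and GAAA again. Capitals mark the matches, and where matches overlap the capitals run together.
Ifi203, chr1:173942443-173942742, minus strand: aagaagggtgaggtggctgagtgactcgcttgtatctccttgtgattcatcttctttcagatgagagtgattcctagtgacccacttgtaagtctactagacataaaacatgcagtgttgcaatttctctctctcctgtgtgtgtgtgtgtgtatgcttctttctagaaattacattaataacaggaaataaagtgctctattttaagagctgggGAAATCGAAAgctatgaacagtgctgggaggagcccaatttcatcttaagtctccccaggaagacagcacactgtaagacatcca
Ifi211, chr1:173912997-173913296, minus strand: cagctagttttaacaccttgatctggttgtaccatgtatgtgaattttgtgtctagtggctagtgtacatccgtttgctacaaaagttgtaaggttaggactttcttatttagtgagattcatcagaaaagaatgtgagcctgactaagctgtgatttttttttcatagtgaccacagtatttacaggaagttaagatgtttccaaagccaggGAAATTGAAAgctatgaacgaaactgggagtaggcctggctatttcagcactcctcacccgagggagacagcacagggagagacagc
Ifi205, chr1:174031706-174032005, minus strand: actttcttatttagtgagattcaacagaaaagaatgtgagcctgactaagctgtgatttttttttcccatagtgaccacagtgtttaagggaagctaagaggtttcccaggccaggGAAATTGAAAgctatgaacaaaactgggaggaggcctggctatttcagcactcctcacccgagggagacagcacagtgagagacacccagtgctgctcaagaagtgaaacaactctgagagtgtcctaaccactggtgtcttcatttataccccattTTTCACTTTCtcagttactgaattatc
Isg15, chr4:156200769-156201068, minus strand: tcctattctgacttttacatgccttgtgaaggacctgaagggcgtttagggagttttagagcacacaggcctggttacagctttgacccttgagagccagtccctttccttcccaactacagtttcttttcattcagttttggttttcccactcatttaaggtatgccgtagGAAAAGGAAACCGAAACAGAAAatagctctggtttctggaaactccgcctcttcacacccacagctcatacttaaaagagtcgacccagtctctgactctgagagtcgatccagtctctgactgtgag

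In Ifi211 and Ifi203 the match began 37 and 35 bases upstream of the start, as GAAATTGAAA and GAAATCGAAA, and both were followed by the same letters gctatgaac. Ifi205 held GAAATTGAAA, with the same letters after it, at 134 bases upstream and a second match on the other strand, 23 bases past the start. The windows of Ifi211 and Ifi205 shared an unbroken run of 45 bases, so their matches are not independent of each other. In Isg15, 3 overlapping matches began 78, 72 and 66 bases upstream. RefSeq gives Ifi203 a further, more upstream window that overlaps the one shown, and that window held no match. The motif was held by 3.44% of all 32851 RefSeq windows, and by 16 of the 34 other listed interferon pathway genes with a window. The GAS-like letters, TTC and GAA with 3 bases of any kind between them, found in 8.3% of all windows, were not in the windows of these genes. A match describes letters only.

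**Figure D1:**
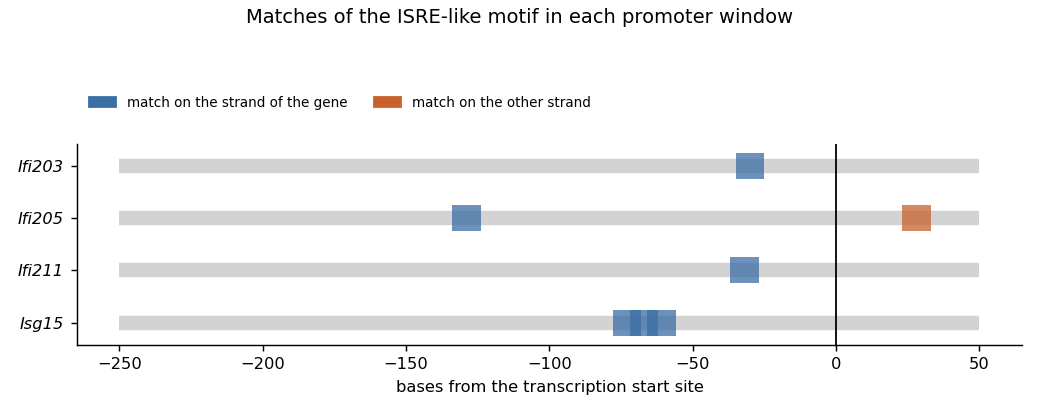
Positions of the ISRE-like letters in the 300-base promoter windows of Ifi203, Ifi205, Ifi211 and Isg15, in bases from the transcription start site (vertical line). Blue blocks are matches on the strand of the gene and the orange block a match on the other strand; Isg15 holds 3 overlapping matches and Ifi205 2 separate ones.

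Isg15 was the most abundant of the 6 transcripts. It stood at 94.6, 95.5 and 105 TPM in control replicates 1 to 3 and at 83.6, 77.0 and 73.5 TPM in the OA replicates. The highest OA library lay 11.01 TPM below the lowest control library, the widest such gap among the 6 genes. The mean went from 98.3 ± 5.75 to 78.0 ± 5.09 TPM (SD, n = 3 per group), a log2 fold change of −0.33 on the log2(TPM + 1) scale (SE 0.0739, adjusted p = 0.026, limma). Log2(TPM + 1) understates the change of low genes.

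Rtp4 stood at 36.2, 36.0 and 45.9 TPM in control and at 29.3, 29.6 and 24.4 TPM in OA. Control replicate 3 was high and OA replicate 3 low, and the other libraries of each group lay close to each other. Its log2 fold change was −0.49 (SE 0.131, adjusted p = 0.0301, limma).

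Among the IFI200 genes, Ifi205 had the lowest level and the lowest ratio of OA to control. It stood at 21.8, 22.1 and 27.4 TPM in control and at 14.5, 14.8 and 13.9 TPM in OA, from 23.8 ± 3.17 to 14.4 ± 0.472 TPM. The 3 OA libraries lay close together, and the gap to the lowest control was 6.94 TPM. The log2 fold change was −0.68 (SE 0.101, adjusted p = 0.026, limma), the 15th lowest of the 559 listed genes.

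Ifi204, which encodes the protein p204 and is a close relative of human IFI16, a sensor of DNA, stood at 46.0, 44.1 and 57.5 TPM in control and at 39.6, 34.0 and 35.3 TPM in OA. It was the only one of the 6 for which OA replicate 3 was not the lowest library. Its log2 fold change was −0.42 (SE 0.123, adjusted p = 0.0326, limma).

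Ifi203 stood at 54.2, 52.1 and 64.4 TPM in control and at 48.7, 45.7 and 43.5 TPM in OA. The gap between the groups, 3.43 TPM, was the narrowest of the 6, and smaller than the control SD of 6.55 TPM. Its log2 fold change was −0.30 (SE 0.0981, adjusted p = 0.0407, limma).

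Ifi211, the most abundant of the listed family members, stood at 70.3, 67.3 and 86.0 TPM in control and at 59.9, 63.5 and 52.3 TPM in OA. The groups did not overlap, but the mean difference of 74.5 ± 10.02 against 58.6 ± 5.75 TPM was not past the threshold (log2 fold change −0.34, SE 0.124, adjusted p = 0.0507, limma).

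**Figure D2:**
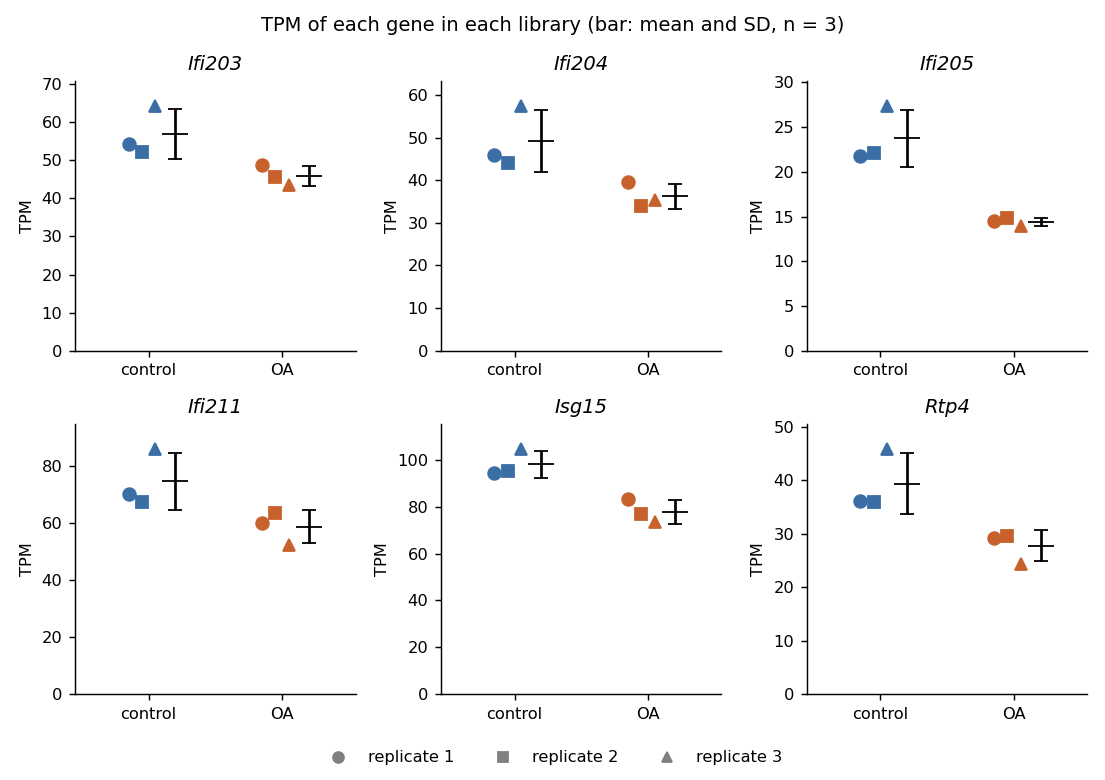
TPM of Ifi203, Ifi204, Ifi205, Ifi211, Isg15 and Rtp4 in 3 control (blue) and 3 OA (orange) libraries, with the marker shape giving the replicate number and the bar the mean and SD. In every panel the 3 OA libraries lie below the 3 control libraries, and control replicate 3 is the highest.

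The 5 of 6 members that fell stand against 40.1% of the 559 listed genes called lower and 36% called higher. All 6 members had no overlap and were lower, against 48.5% of listed genes, and a further 45.1% had no overlap and were higher. Among the 272 listed genes that were lower, 271 had no overlap and 224 fell. For a listed gene, no overlap therefore adds little to the direction. The median log2 fold change of the 6 was −0.38, beside 0.14 over all listed genes and −0.29 over the 272 listed genes that were lower. With libraries scaled to equal medians, 82 listed genes were called lower and 162 higher, in place of 224 and 201. The 6 genes were lower under that scaling too, and 4 of them passed. In the authors' deposited table, the log2 fold changes were −0.27 for Ifi203, −0.44 for Ifi204, −0.72 for Ifi205, −0.34 for Ifi211, −0.33 for Isg15 and −0.49 for Rtp4. The authors' deposited table gives the smallest Q value of the 6 to Ifi205 (0.000207) and the largest to Ifi211 (0.0367).

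The order of levels was the same in both groups: Isg15, Ifi211, Ifi203, Ifi204, Rtp4 and Ifi205. Each gene was above the next in 3 of 3 libraries of each group. In control the range over libraries of Ifi203 overlapped that of Ifi204, and that of Ifi204 overlapped that of Rtp4, although the order held within each library. In OA no neighbouring ranges overlapped.

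Summed over Ifi203, Ifi204, Ifi205 and Ifi211, the IFI200 level was 192.3, 185.6 and 235.3 TPM in control and 162.6, 158.0 and 144.9 TPM in OA, a ratio of group means of 0.759. The family list held 15 symbols, older names included, for 13 genes, and the other 9 genes were not listed. Within the sum, the share of Ifi205 was 11.6% ± 0.28 in control and 9.29% ± 0.365 in OA, with the highest OA share of 9.59% below the lowest control share of 11.3%. The shares of Ifi204 and Ifi211 overlapped between the groups, and that of Ifi203 was 27.4% to 28.2% in control and 28.9% to 30.0% in OA. These shares were not tested. The ratio of Isg15 to the IFI200 sum was 0.484 ± 0.0349 in control and 0.503 ± 0.0139 in OA, within the spread between libraries.

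The IFI200 genes are similar in sequence, which bears on how reads are divided between them. Of all 50-base stretches in the coding transcripts of Ifi211, 72.8% also occur in a GENCODE transcript of another gene, 44.7% in Ifi205 and 30.1% in Ifi204. The shared part was 49.6% for Ifi205, nearly all of it with Ifi211, 30.2% for Ifi204 and 16.5% for Ifi203, whose largest overlap was with the pseudogene Ifi203-ps. At 100 bases it was 56.9% for Ifi211 and 41.5% for Ifi205. For Isg15 the part shared at 50 bases was 3.96%, and for Rtp4 it was 11.6%. The levels of Ifi205, Ifi211 and Ifi204 as single genes are therefore uncertain. The sum over the 4 listed genes is less open to reads shared among them, but not to reads shared with genes outside it. At 50 bases Mndal, which is outside it, held 16.8% of the stretches of Ifi205, 8.5% of Ifi204 and 4.51% of Ifi203. For Ifi211 only the overlaps with Ifi205 and Ifi204 were kept, so its part shared with Mndal is not given. That part is not absent, as nearly all shared stretches of Ifi205, those in Mndal included, also occur in Ifi211. How the counting placed shared reads was not tested.

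Replicate 3 stood at the edge of both groups. Control replicate 3 was the highest control library for 6 of 6 members, at 1.104 times the mean of the other controls for Isg15 and 1.21 to 1.277 times for the others. OA replicate 3 was the lowest OA library for 5 of 6, at 0.828 times the mean of the other OA libraries for Rtp4, 0.847 times for Ifi211, 0.916 times for Isg15, 0.921 times for Ifi203 and 0.949 times for Ifi205, and it was at 0.958 times that mean for Ifi204. Listed genes that were lower in OA shared this order, with control replicate 3 highest for 90.1% of the 272 and OA replicate 3 lowest for 96.7%. Without replicate 3 of both groups the ratio of OA to control was 0.668 for Ifi205, 0.816 for Rtp4, 0.817 for Ifi204, 0.845 for Isg15, 0.887 for Ifi203 and 0.897 for Ifi211. The log2 fold changes then were −0.55 for Ifi205, −0.28 for Rtp4, −0.29 for Ifi204, −0.24 for Isg15, −0.17 for Ifi203 and −0.15 for Ifi211. Ifi205, Isg15 and Rtp4 passed in limma, and 191 of all 559 listed genes were called lower.

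The calls differed with the library left out. Limma called 0 of the 6 genes without control replicate 1 and 0 without OA replicate 2, with 5 and 4 of them lower at an unadjusted p under 0.05. Across the whole table it then called 0 genes lower in either case. Leaving out control replicate 2, or control replicate 3, left Ifi205 as the single call among the 6. Of all 559 listed genes, 13 and 30 were called lower in these cases. Limma called Ifi205, Isg15 and Rtp4 without OA replicate 3, and Ifi204, Ifi205, Isg15 and Rtp4 without OA replicate 1. Across the table it then called 138 and 187 genes lower.

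**Figure D3:**
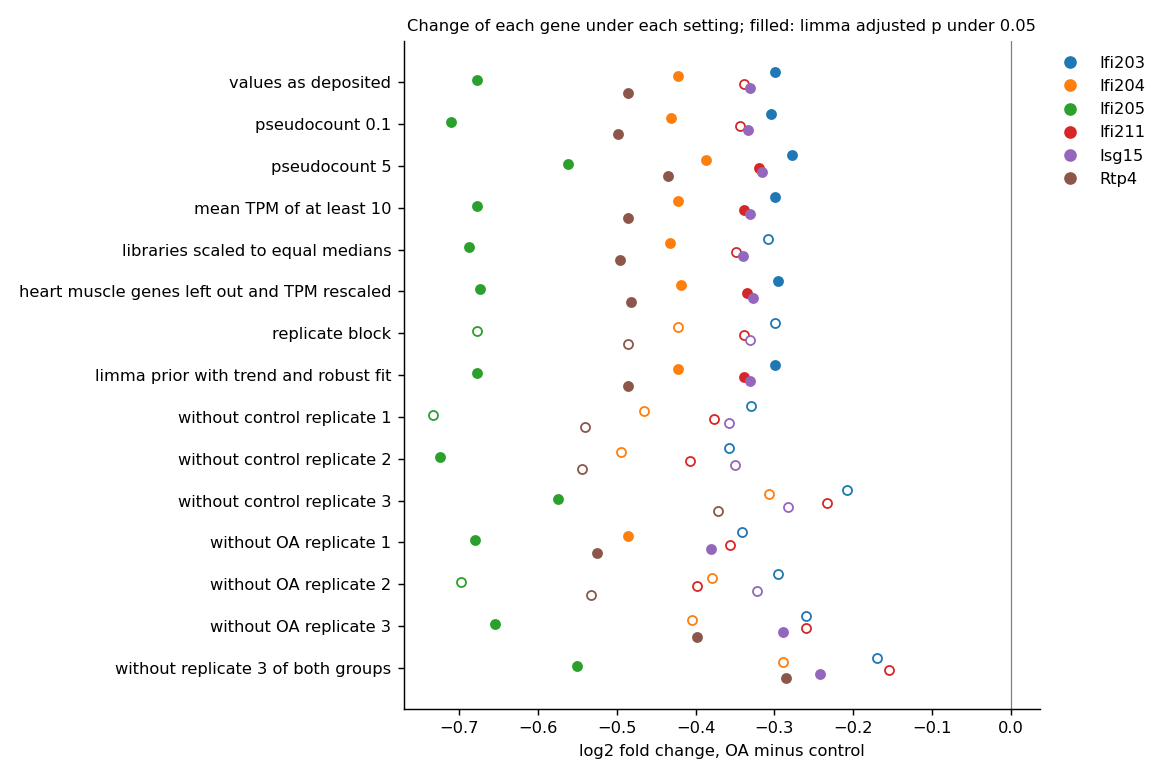
Log2 fold change (OA minus control) of each of the 6 genes under each setting of the analysis, one setting a line, with filled points for a limma adjusted p under 0.05. All points lie below 0, Ifi205 lowest in every setting. All 6 points are open with the replicate block, and most are open where a control library or OA replicate 2 was left out.

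Other listed genes of the interferon pathways moved in the same direction. Of 206 further symbols, older names included, on the family and pathway lists, 47 were listed. Of these, 38 fell, 8 did not pass and 1 rose, with a median log2 fold change of −0.28. Over all listed genes 40.1% fell and 36% rose. By sign 45 of the 47 were lower. Of the 272 listed genes lower by sign 224 fell, with a median of −0.29. The lists were chosen with earlier results of these libraries known, and their direction is not independent evidence.

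Beside Isg15, the list of ISG15 conjugation genes had a single other listed gene, Ube2l6, which encodes the E2 enzyme that passes ISG15 to its substrates. It fell to 0.807 of the control level (adjusted p = 0.0333, limma). Uba7, Herc6, Trim25 and Usp18, which complete the conjugation and removal steps, were not listed.

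Of 85 symbols, older names included, listed as type I interferon-stimulated, 16 were in the table. Of these, 13 fell, 3 did not pass and 0 rose, where 40.1% of all listed genes fell and 36% rose. Cxcl10, Ly6c2, Tnfsf10 and Oas3 had the lowest ratios, 0.660, 0.656, 0.689 and 0.692 of the control level, and all 4 passed. Oas3, which makes the 2-5A second messenger of the antiviral RNase L pathway, stood at 12.0, 11.3 and 16.1 TPM in control and at 10.3, 9.49 and 7.44 TPM in OA. The membrane protein genes Ifitm1 and Ifitm2, whose products restrict virus entry, fell to 0.750 and 0.866 of the control level, and Ifitm3 was at 0.859 without passing (adjusted p = 0.0508, limma). The nucleic acid sensor Zbp1, the dNTPase Samhd1 and the kinase Eif2ak2 (PKR) fell to 0.794, 0.789 and 0.815. Ly6a, Ly6e, Ms4a4b and Lgals3bp fell to 0.788, 0.881, 0.853 and 0.840. Parp14 and Trim30a stood at 0.826 and 0.836 without passing. Ifit, Mx, Rsad2 and Irf7 genes of the same list were not listed.

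Of 54 symbols of interferon gamma-induced GTPases and factors, 25 were listed. Of these, 21 fell, 4 did not pass and 0 rose, where 40.1% of all listed genes fell and 36% rose. The smallest adjusted p values in this list were those of Batf2, a transcription factor that went from 50.9 ± 6.01 to 28.9 ± 4.52 TPM, Nos2, which encodes inducible nitric oxide synthase, Casp4, an inflammatory caspase, and the adhesion receptor gene Icam1. Nos2, Casp4 and Icam1 stood at 0.540, 0.834 and 0.835 of the control mean, and all 3 passed. Without control replicate 3, 4 genes of this list and 2 of the type I list fell, and with libraries scaled to equal medians 4 of each did. In these 2 settings 30 and 82 of all 559 listed genes were called lower.

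Of 28 symbols of interferons, receptors and JAK-STAT genes, 3 were listed. Ifng, which encodes interferon gamma, stood at 1433, 1335 and 1783 TPM in control and at 1043, 911 and 683 TPM in OA. Like the 6 genes, it was highest in control replicate 3, and it fell (log2 fold change −0.80, SE 0.195, adjusted p = 0.0281, limma). Socs1, an inhibitor of JAK signalling that interferon induces, fell to 0.836 of the control level, and Socs3 stood at 1.08 times control without passing (adjusted p = 0.0627, limma). Among the nucleic acid sensing genes, Tmem173, which encodes STING, the adaptor that signals for cytosolic DNA, fell to 0.842. Unc93b1, which carries endosomal Toll-like receptors, rose 1.11-fold. Cgas, Aim2, Tbk1 and Irf3 were not listed.

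**Figure D4:**
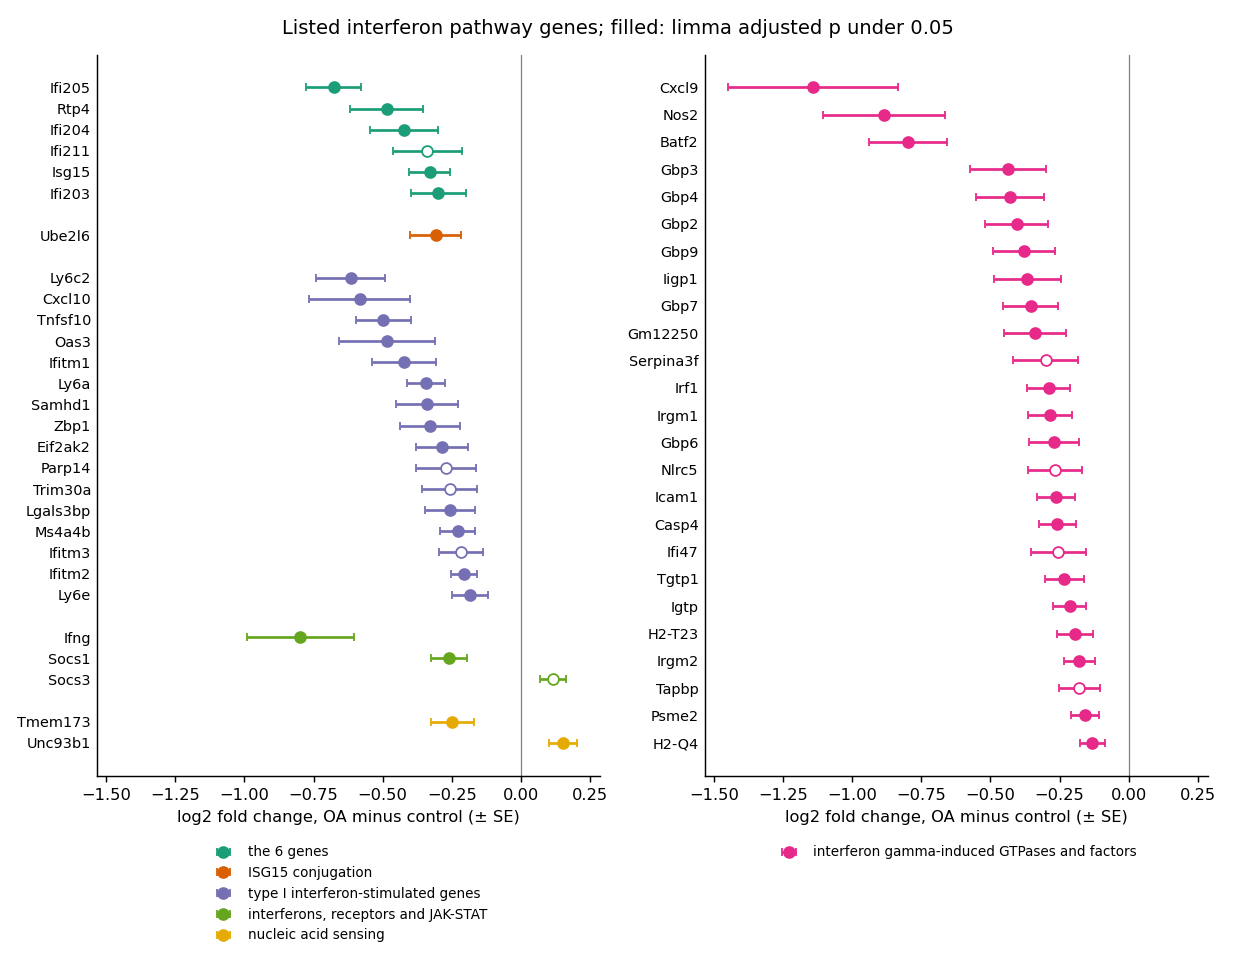
Log2 fold change (OA minus control, with SE) of the 6 genes and of the other 47 listed genes of the interferon pathway lists, filled where the limma adjusted p was under 0.05. All but Socs3 and Unc93b1 lie below 0; the 6 genes run from −0.68 for Ifi205 to −0.30 for Ifi203.

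The genes most like the 6 over the libraries were sought by the root mean square (RMS) difference of log2(TPM + 1) after subtraction of the control mean, over 6 libraries. Nearest to the mean profile of the 6 were Gbp2, a guanylate-binding protein gene (RMS difference 0.0209), Gbp4 (0.0281) and Slamf8 (0.0415). For Ifi211 the nearest was the GTPase gene Gm12250 (0.021), followed by the adaptor gene Dok2 (0.0403). For Isg15 these were Ly6a (0.0236) and the galectin gene Lgals1 (0.0298), and for Ifi203 the cathepsin gene Ctsh (0.0233) and Serpina3f (0.0342). For Ifi204 they were Gbp4 (0.0628) and Gbp3 (0.0629), and for Rtp4 the metalloproteinase gene Adamts14 (0.0412) and the inhibitory receptor gene Lair1 (0.0493). Ifi205 had the least close neighbours, the complement protease gene C1s1 (0.121) and Gzma (0.122). The median listed gene lay between 0.347 (from Ifi203) and 0.588 (from Ifi205) away. This median is over all listed genes, of which 287 were higher in OA. The median among the 272 lower genes, most of which shared the order of replicate 3, was not computed. Within the 6, Ifi203 and Isg15 were closest (0.0533) and Ifi203 and Ifi205 farthest apart (0.272).

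Markers of NK cells, the profiled cells, were lower in the same libraries as the 6 genes. Of 24 NK cell marker symbols 11 were listed and 11 fell, with a median log2 fold change of −0.40, where 40.1% of all listed genes fell and 36% rose. The summed level of these markers was 5071, 4958 and 5907 TPM in control and 4171, 3929 and 3269 TPM in OA. Among them Gzmb, a granzyme gene, and Il2rb, a receptor chain for IL-2 and IL-15, were the most abundant, at 1551 and 966 TPM in control. Ncr1, which encodes NKp46 and was named after its values were seen, stood at 131 ± 7.42 and 91.8 ± 12.9 TPM. Control replicate 3 was the highest control library for 11 of these 11 markers and OA replicate 3 the lowest OA library for 11.

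Most listed markers of monocytes and macrophages and of B cells went the other way. Of 28 monocyte and macrophage marker symbols 13 were listed, of which 12 rose and 1, Ccr2, fell. Of all listed genes, 36% rose and 40.1% fell, and these shares also stand beside the marker counts below. The summed levels of the 13 were 5426 to 6086 TPM in control and 6855 to 7295 TPM in OA, led by Il1b and Clec4d. Of 20 B cell markers 6 were listed and 5 rose, from 323 to 403 TPM summed in control to 503 to 592 TPM in OA. Of 13 neutrophil markers 2 were listed, Mmp8 and Mmp9, and both rose. Kit and Mcpt8 of the mast cell and basophil list fell, and so did the T cell markers Cd28 and Icos. None of 15 dendritic cell markers was listed. All listed markers of monocytes and macrophages and of B cells were above 0 in every library. Those of monocytes and macrophages summed to a mean of 5807 TPM in control, beside 5312 TPM for the listed NK cell markers. Sums over lists of different genes do not measure shares of cells. In bulk RNA, fewer cells of a type and less RNA per cell cannot be told apart, and the part of the cell mixture in the lower levels of the 6 genes was not tested.

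**Figure D5:**
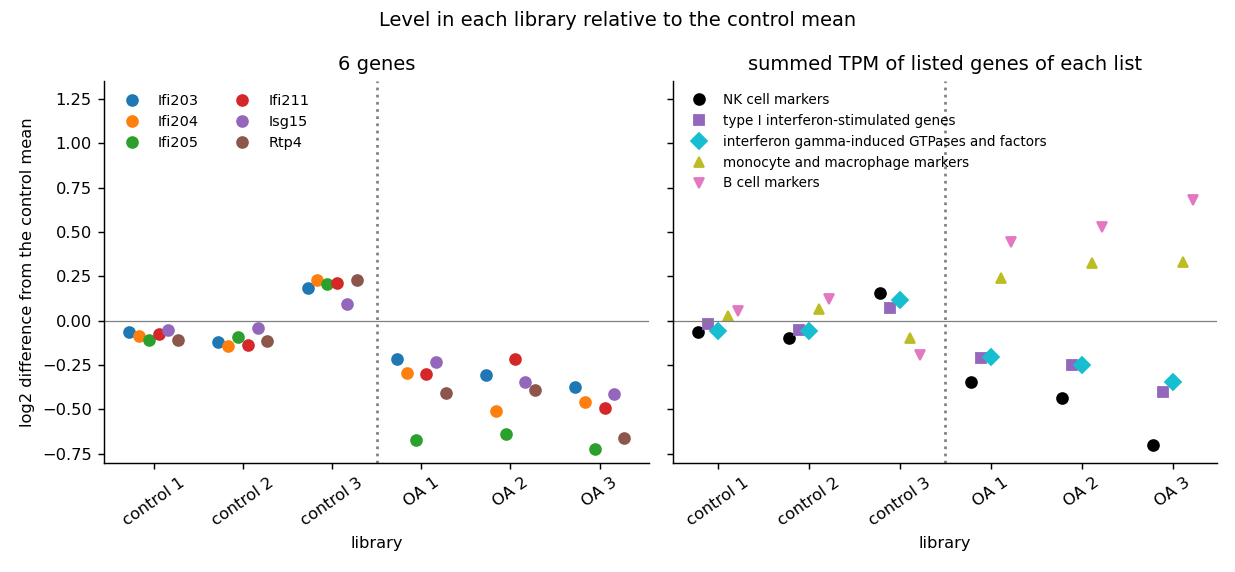
Log2 difference of each library from the control mean for the 6 genes (left, log2(TPM + 1)) and for the summed TPM of the listed genes of 5 lists (right). The 6 genes, the interferon lists and the NK markers lie above 0 in control replicate 3 and below 0 in all OA libraries, and monocyte, macrophage and B cell markers lie the other way.

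Heart muscle transcripts were high in OA replicate 3. The 24 listed heart muscle genes summed to 42.6 to 69.4 TPM in control and to 62.3, 580.0 and 7834 TPM in OA replicates 1 to 3, or up to 0.783% of the scale. With these genes left out and TPM rescaled, the log2 fold changes of the 6 ran from −0.67 (Ifi205) to −0.29 (Ifi203), and 6 of 6 passed in limma. Of the 535 listed genes then left, 237 were called lower. The listed genes summed to between 12.2% and 12.6% of the TPM scale in each library, and the depth of the libraries is unknown.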

How the data were processed

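RNA of 6 libraries, 3 control and 3 OA, was measured. Per the submitters' processing notes, Bowtie2, RSEM 1.3.1, DESeq2 1.4.5 and the build mm10 were used, without roles or order; filters are not given in the sources used here. Per the file headers, the authors deposited TPM for each library and as a group mean. Per the file headers, the authors also deposited a log2 fold change, a P value and a Q value for each gene. TPM keeps no read numbers, so depth, counting error and count tests could not be had.

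Samples were grouped by the treatment label, and columns matched by sample title. Limma 3.58.1 (R 4.3.3) was fitted to log2(TPM + 1) of the whole table without filter or covariate (two-sided, adjusted over 559 genes). The fit was run on simulated data with changes larger than those of the 6 genes, independent noise and no selection of genes. That run does not show how reliable calls of the present size are among the listed genes. The text names the 6 members, all listed genes of the smaller pathway lists and of the type I list, the 4 with the smallest adjusted p of the interferon gamma list, the nearest profiles, and up to 2 abundant markers per cell list; heart muscle genes are given as a sum. The members and lists were chosen with earlier results of these data known. Alternatives were other pseudocounts, a filter, scalings, a replicate block, another prior, a stricter threshold and left-out libraries. No pair of libraries was identical (at most 14 equal values). Gene identifiers matched RefSeq on GRCm38 for 6 of 6 members, and promoter windows for 4. Transcripts were those of GENCODE on the same build. Python 3.11.15, numpy 2.4.6, pandas 2.3.3 and matplotlib 3.10.9 were used.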

Additional observations from a re-analysis of the deposited data

How the results depend on the processing

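All 6 genes were lower in OA under each of the 15 alternatives run, with log2 fold changes of −0.73 to −0.55 for Ifi205 and −0.41 to −0.15 for Ifi211 at the ends. As their groups did not overlap, this sign was fixed in advance under nearly all of these alternatives. Only the scaling to equal medians and the rescaling without heart muscle genes could have changed it. Of the 6, 5 passed with a pseudocount of 0.1. All 6 passed with a pseudocount of 5, or a mean TPM of at least 10. They also did with heart muscle genes left out, or a limma prior with trend and robust fit. The calls over the table moved too. With pseudocounts of 0.1 and 5, 224 and 242 of 559 genes were called lower. With the filter these were 245 of 472, without heart muscle genes 237 of 535, and with the other prior 259 of 559. With the replicate block, limma called 0 of the 6 (3 at an unadjusted p under 0.05), 0 of the type I list, 0 of the interferon gamma list and 0 listed genes in all. At an adjusted p under 0.01 it called 0, 0 and 0 (6, 15 and 24 at an unadjusted p under 0.05), and 1 listed gene lower in all. With libraries scaled to equal medians it called 4, 4 and 4, and 82 of all 559 listed genes lower. Without replicate 3 of both groups it called 3 of the 6 and 191 of all 559 lower. The log2 ratio of the summed IFI200 level was then −0.24, against −0.40. Leaving out each library in turn gave 0 to 4 of the 6, 0 to 10 of the type I list and 0 to 15 of the interferon gamma list (at an unadjusted p under 0.05, 4 to 6, 8 to 15 and 12 to 20), and a log2 ratio of the IFI200 sum of −0.46 to −0.28. Fewer samples or residual degrees of freedom are part of the block and left-out fits; the cause of the other differences was not tested. The correlations of deviations between same-numbered libraries over the listed genes were 0.33, −0.11 and −0.08 for replicates 1, 2 and 3, and −0.11, −0.05 and −0.14 without the heart muscle genes. They were not all above 0.1, so the numbers were not taken as a pairing.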

Other observations

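The ISRE-like letters were also counted in the promoter windows of the other listed genes, by the direction of their change. Of 199 other genes with a window that were lower in OA, 13.6% held a match, against 4.19% of 215 genes that were higher and 3.99% of 27025 genes in the RefSeq table. The GAS-like letters were held by 16.6% of the lower, 9.77% of the higher and 9.55% of all genes. The lower genes include most of the other listed interferon pathway genes. Of the 34 of those with a window, 16 held the ISRE-like and 13 the GAS-like letters. Shares of the lower genes without them were not computed. The listed genes were selected on these libraries, and these shares carry no test.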
